A study of Rattus norvegicus with 10 samples.

Results

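The genes described here encode the chains of the rat MHC class II molecules and the invariant chain that accompanies them: Cd74, RT1-Da, RT1-Db1, RT1-Ba, RT1-Bb and RT1-DMb. Every probe set whose only gene symbol in the platform annotation was one of these 6 was taken, which gave 19 of the 8740 probe sets tested, for 6 of the 4736 genes that had a single symbol. They target 13 sequence accessions, so some pairs of probe sets, such as X13044_at and X13044_g_at, read the same transcript sequence and are not independent measurements. The RNA came from microglia, macrophage-lineage cells that live in the brain, grown from neonatal rat brains at 1 brain per flask. The IFN-gamma group was 3 cultures left with 100 U/ml of the cytokine interferon gamma for 16 hours, of which culture 1 was measured on 3 arrays (1a, 1b and 1c). The control group was 5 independent cultures (numbered 1, 2, 3, 5 and 6) that received fresh medium without the cytokine. No strain or sex was labelled, and all cultures shared serum-containing medium and plating on day 15.

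Class II molecules display peptides from the endosomal pathway to CD4+ T cells. Each is a pair of an alpha and a beta chain, and the invariant chain fills the peptide groove until the molecule reaches the endosome, where the DM molecule helps to exchange the last invariant chain fragment for a peptide. In the rat the MHC is called RT1, and RT1.D and RT1.B are its 2 classical class II molecules. Resting microglia carry little class II protein, and IFN-gamma is the classical inducer of it, acting through the coactivator CIITA. CIITA works with factors bound to a pair of short promoter elements, the X box and the Y box.

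Because these genes are known for that shared promoter design, the stretch holding the elements is shown for each gene with an entry in the RefSeq promoter table (rat build GRCr8), with the strand and its distance before the annotated gene start. Capitals mark the letters searched on both strands, the X box core first and GATTGG, the Y box, after it. For Cd74, which had neither, capitals mark the reverse complement of the shorter ATTGG, a search added after the sequences were seen. RT1-DMb had no entry.
RT1-Da chr20:4515326-4515376, plus strand, 89 to 39 bases before the start: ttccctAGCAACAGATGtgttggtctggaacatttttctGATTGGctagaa
RT1-Db1 chr20:4560232-4560281, minus strand, 119 to 70 bases before the start: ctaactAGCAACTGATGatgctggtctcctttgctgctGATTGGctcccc
RT1-Bb chr20:4604169-4604218, minus strand, 100 to 51 bases before the start: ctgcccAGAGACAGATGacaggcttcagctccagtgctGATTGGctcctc
RT1-Ba chr20:4576972-4577024, plus strand, 85 to 33 bases before the start: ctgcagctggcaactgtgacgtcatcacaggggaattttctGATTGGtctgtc
Cd74 chr18:56526972-56527027, plus strand, 234 to 179 bases before the start: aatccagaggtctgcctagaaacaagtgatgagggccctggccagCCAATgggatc

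RT1-Da, RT1-Db1 and RT1-Bb each held the X box core followed by the Y box on the coding strand, with 22, 21 and 21 bases between them. Of 33469 promoter windows of the same length, 0.95% held the X box core and 14.8% the Y box. A core followed by a Y box within 30 bases, on either strand, occurred in 6 windows (0.0179%). These were the 3 members, RT1-DOb, RT1-Db2 and, outside the class II genes, Slc4a5, the last named after the search was seen. RT1-Ba matched the Y box at 44 bases before the start and not the X box core as spelled. The letters TTCNNNGAA (the interferon gamma activation site) and the core of the interferon-stimulated response element occurred in 0 of the 5 member windows, against 8.87% and 3.92% of all windows. A match is a run of letters and not a measured binding site.

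Arrays differed in overall brightness before normalisation. The median deposited signal of an array ran from 11.1 to 23.7 with IFN-gamma and from 7.4 to 20.2 in the controls, lowest in control culture 3 and highest on IFN-gamma array 1b, and all levels below are quantile normalised log2(signal + 16) values unless called deposited signals. A signal of 0 is 4 on that scale. The GAPDH control probes, which gauge RNA integrity, gave 3' over 5' ratios of 1.3 to 1.78 with IFN-gamma and 1.33 to 1.81 in the controls. Of 10 microglial marker genes 6 were measured and 0 passed the test (limma), with 1 higher at an unadjusted p under 0.05. Aif1 was at 8.24 ± 0.228 with IFN-gamma (SD, n = 3) and 7.81 ± 0.529 in the controls (SD, n = 5), whereas Csf1r and Cx3cr1 lay near the floor in both groups, at 4.88 and 4.91 with IFN-gamma and 4.74 and 5.19 in the controls. Among marker lists of other cells that could be present, 0 genes passed by their brightest probe set of 5 measured for astrocytes, 5 for oligodendrocytes, 5 for neurons, 7 for fibroblasts and vessels, 1 for B cells and 6 for T cells. At an unadjusted p under 0.05, 2 fibroblast and vessel genes and 1 oligodendrocyte gene were lower with IFN-gamma and 0 genes of these 6 lists were higher. A dimmer Col1a1 probe set was lower with IFN-gamma (log2 fold change -1.20, adjusted p = 0.0239). Dendritic cell markers were not analysed here. In bulk RNA, more RNA per cell and a larger share of expressing cells cannot be told apart.

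RNA for the chains of both classical class II molecules and the invariant chain was higher in the IFN-gamma cultures by the brightest probe set of each gene. For RT1-DMb, the DM beta chain, the brightest probe set missed the threshold and the other 2 passed. Of the 19 probe sets 14 rose and 0 fell (limma, Benjamini-Hochberg adjusted p under 0.05), where 0.927% of all probe sets tested were called higher and 0.606% lower. The 14 increases ran from 1.97 to 5.75 on the log2 scale. In 16 of the 19 probe sets all 3 IFN-gamma cultures lay above all 5 controls, an arrangement seen in 4.28% of all probe sets tested. The median log2 fold change over the 19 was 3.19, against -0.02 over all probe sets tested. Of the 10 largest log2 fold changes on the array 7 belonged to probe sets of Cd74, RT1-Da and RT1-Ba. The best ranks of RT1-Db1, RT1-Bb and RT1-DMb were 13, 12 and 20. Leaving out control culture 3, the dimmest array, gave 15 called members, and using array 1a, 1b or 1c alone for IFN-gamma culture 1 gave 14, 15 and 14.

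**Figure D1:**
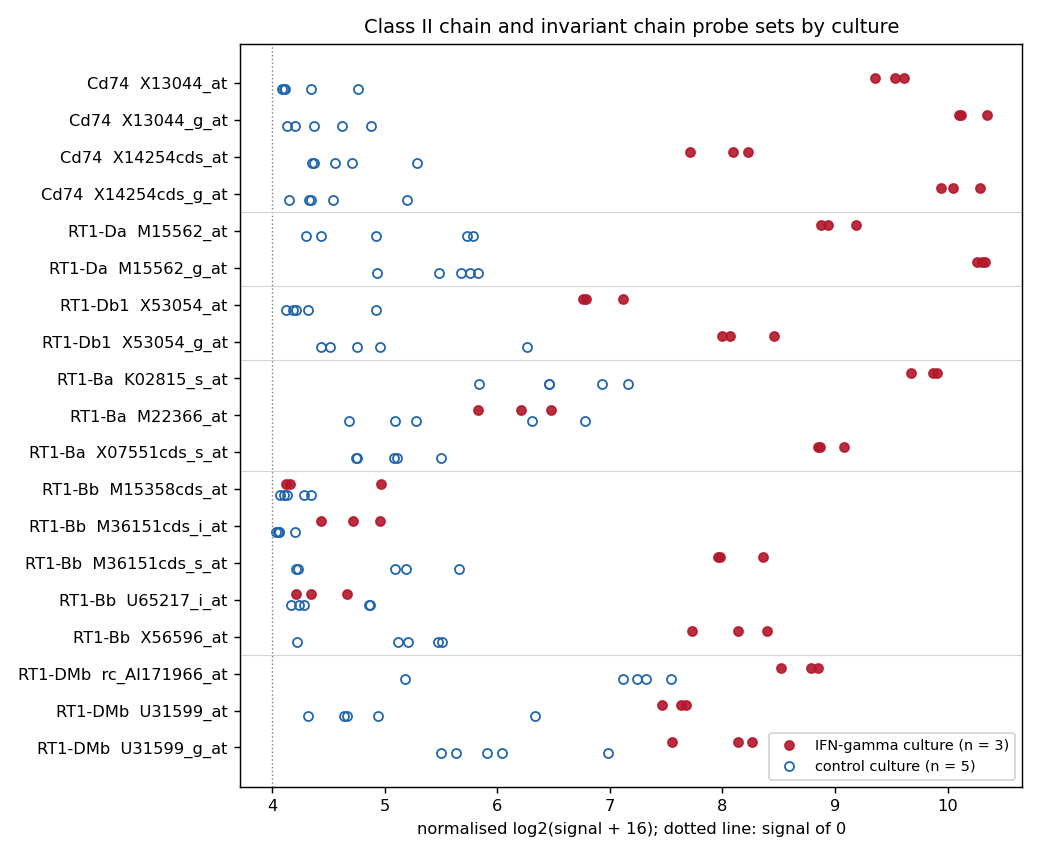
Normalised log2(signal + 16) of each of the 19 probe sets (rows, grouped by gene) in the 3 IFN-gamma cultures (filled red, upper line of each row) and the 5 control cultures (open blue, lower line). The filled points stand clear of the open ones in 16 rows and mix with them in 3, namely M22366_at, M15358cds_at and U65217_i_at.

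**Figure D2:**
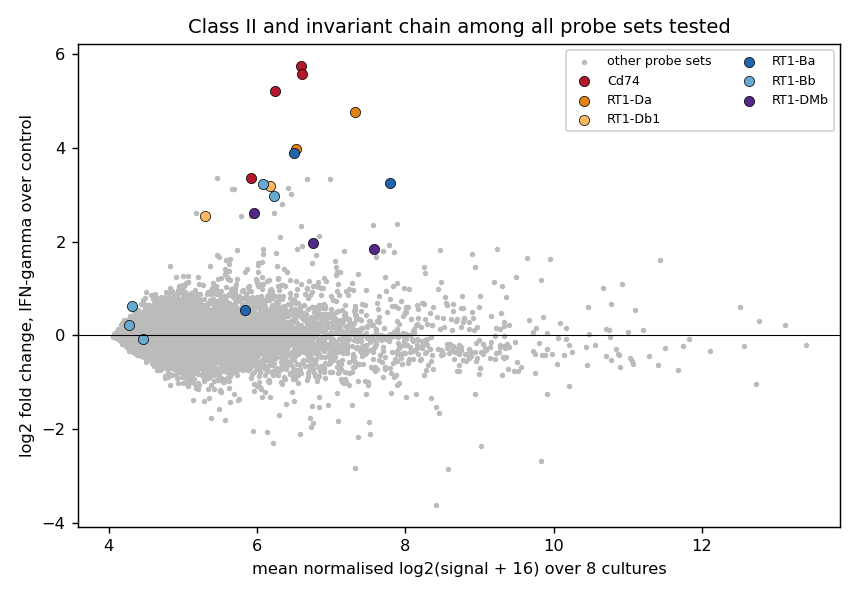
Log2 fold change, IFN-gamma over control, against the mean level over 8 cultures for all 8740 probe sets (grey) and the 19 class II and invariant chain probe sets (coloured by gene). Of the 10 highest points 7 are coloured, and Cd74 X13044_g_at is the highest, at 5.75.

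Cd74, the invariant chain, held the probe set with the largest change. Its deposited signals on probe set X13044_g_at were 902.4, 3366.9 and 608.6 on arrays 1a, 1b and 1c, 1600.8 in IFN-gamma culture 2 and 2279.0 in culture 3, against 5.6, 1.2, 4.3, 15.6 and 2.8 in control cultures 1, 2, 3, 5 and 6. Every control signal of this probe set was below the median signal of its own array, and every IFN-gamma signal was above it. After normalisation the probe set stood at 10.10, 10.12 and 10.35 in IFN-gamma cultures 1, 2 and 3 and at 4.37, 4.13, 4.62, 4.88 and 4.20 in the controls. The groups were thus 5.22 apart at their nearest values. The probe set rose by 5.75 ± 0.207 (log2 fold change ± SE, limma adjusted p = 2.12e-06), the first of all probe sets by size of log2 fold change.

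The other 3 Cd74 probe sets rose as well, by different amounts. X14254cds_g_at stood at 10.05, 10.29 and 9.94 with IFN-gamma and at 4.54, 4.34, 5.20, 4.15 and 4.33 in the controls (log2 fold change 5.58 ± 0.246 SE). X13044_at was at 9.50 ± 0.128 with IFN-gamma (SD, n = 3) and 4.28 ± 0.288 in the controls (SD, n = 5). X14254cds_at had the smallest change of the 4, with 8.23, 8.09 and 7.71 with IFN-gamma against 4.71, 5.29, 4.35, 4.56 and 4.37 in the controls (log2 fold change 3.36 ± 0.246 SE, limma adjusted p = 0.000118). It shares its accession with X14254cds_g_at, so the estimates of 3.36 and 5.58 come from probes on the same sequence.

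RT1-Da encodes the alpha chain of RT1.D. On M15562_g_at the 3 IFN-gamma cultures were almost level, at 10.26, 10.33 and 10.31, while the controls spread over 4.93, 5.83, 5.68, 5.48 and 5.76. No control came within 4.42 of the lowest IFN-gamma culture. On M15562_at the levels were 9.19, 8.94 and 8.88 with IFN-gamma, against 4.30, 4.43, 5.73, 5.78 and 4.92 in the controls (log2 fold change 3.97 ± 0.366 SE, limma adjusted p = 0.000554). Control cultures 3 and 5 were the high ones on this probe set, with deposited signals of 17.6 and 45.1.

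RT1-Db1 encodes the beta chain that pairs with RT1-Da. X53054_g_at was at 8.46, 8.0 and 8.07 with IFN-gamma, against 4.51, 4.43, 6.26, 4.75 and 4.96 in the controls, of which culture 3 was the highest. Its log2 fold change was 3.19 ± 0.39 SE (limma adjusted p = 0.00299). X53054_at was at 7.12, 6.76 and 6.79 with IFN-gamma, against 4.18, 4.12, 4.92, 4.21 and 4.32 in the controls (log2 fold change 2.54 ± 0.218 SE). Control culture 3 was the highest control on both probe sets of this gene.

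RT1-Ba, the alpha chain of RT1.B, was read by 3 probe sets, and 2 of them rose. K02815_s_at was at 9.87, 9.91 and 9.68 with IFN-gamma, against 5.84, 6.46, 7.16, 6.46 and 6.93 in the controls. Its control signals, 45.3 to 131.8 as deposited, were above the array median in every control culture. X07551cds_s_at was at 8.87, 8.85 and 9.08 with IFN-gamma, against 4.75, 4.74, 5.08, 5.50 and 5.11 in the controls (log2 fold change 3.90 ± 0.206 SE, limma adjusted p = 1.08e-05). The exception was M22366_at, at 5.83, 6.21 and 6.48 with IFN-gamma and 4.68, 5.09, 6.78, 6.31 and 5.28 in the controls, where the groups overlapped (log2 fold change 0.55 ± 0.457 SE, limma adjusted p = 0.808). Its deposited signals were above the array median on all 5 IFN-gamma arrays and in 4 of 5 controls.

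RT1-Bb, the beta chain of RT1.B, had 5 probe sets, which split into 2 that rose and 3 that were dim in every culture. X56596_at was at 8.40, 8.14 and 7.73 with IFN-gamma, against 5.47, 5.51, 5.21, 5.12 and 4.22 in the controls (log2 fold change 2.98 ± 0.308 SE, limma adjusted p = 0.00116). M36151cds_s_at was at 8.36, 7.96 and 7.98 with IFN-gamma, against 5.09, 5.19, 5.66, 4.23 and 4.21 in the controls (log2 fold change 3.22 ± 0.343 SE). On both, the lowest control was culture 6.

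M15358cds_at, M36151cds_i_at and U65217_i_at stayed below the median signal of the array on all 10 arrays. Their deposited signals ranged from 0.7 to 16.8 with IFN-gamma and from 0.3 to 15.5 in the controls, and their log2 fold changes were 0.23, 0.62 and -0.08 (limma adjusted p = 0.846, 0.146 and 0.965). M36151cds_i_at shares its accession with M36151cds_s_at, one of the probe sets that rose. Its IFN-gamma cultures, at 4.43, 4.96 and 4.72, lay above all the controls, at 4.03 to 4.20, although both groups were near the floor. It passed with an offset of 1 in place of 16, at a log2 fold change of 2.46 (limma adjusted p = 0.0445), with array 1b alone for IFN-gamma culture 1 (0.77, limma adjusted p = 0.0439) and with an intensity trend in the variance (0.62, limma adjusted p = 0.0137).

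**Figure D3:**
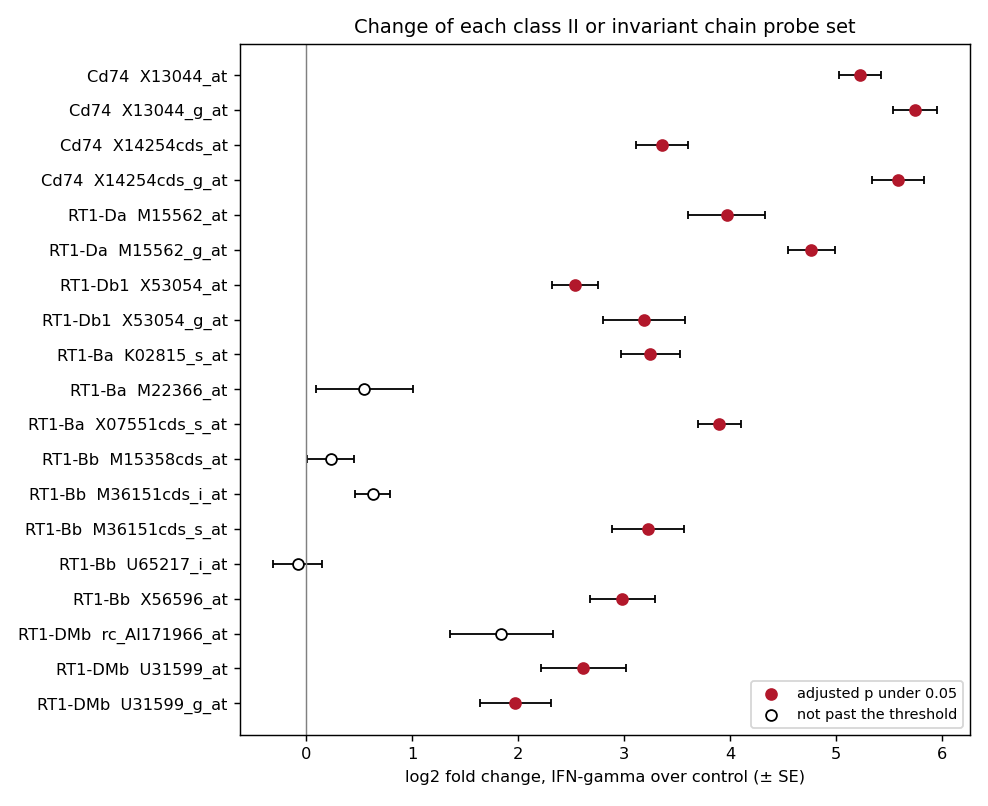
Log2 fold change, IFN-gamma over control, with its standard error for each of the 19 probe sets. Filled points passed an adjusted p of 0.05 (14) and open points did not (5), and 3 of the 5 open points belong to RT1-Bb.

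RT1-DMb encodes the beta chain of the DM molecule, which edits the peptides that class II molecules carry. The signal of rc_AI171966_at was above the array median in every control culture. On rc_AI171966_at the levels were 8.85, 8.52 and 8.79 with IFN-gamma, against 7.24, 7.12, 5.18, 7.32 and 7.54 in the controls, of which culture 3 stood far below the other 4. The groups did not overlap, yet the log2 fold change of 1.84 ± 0.486 SE did not pass (limma adjusted p = 0.141). Without control culture 3 the log2 fold change was smaller, at 1.46 ± 0.18 SE, and passed (limma adjusted p = 0.00516).

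The other 2 RT1-DMb probe sets, which share an accession, passed with all cultures in. U31599_at was at 7.46, 7.63 and 7.68 with IFN-gamma, against 6.33, 4.32, 4.64, 4.66 and 4.94 in the controls (log2 fold change 2.62 ± 0.403 SE, limma adjusted p = 0.0121). U31599_g_at was at 8.26, 7.55 and 8.14 with IFN-gamma, against 6.98, 5.50, 5.63, 6.04 and 5.91 in the controls (log2 fold change 1.97 ± 0.337 SE, limma adjusted p = 0.021). Control culture 1 was the highest control on both. Both calls depended on single cultures. For U31599_at the adjusted p was 0.0633, 0.074 or 0.0801 when IFN-gamma culture 1, 2 or 3 was left out, and with no scaling between arrays neither call held. For U31599_g_at it was 0.124 without IFN-gamma culture 1, 0.128 without IFN-gamma culture 3, and 0.0509, 0.0525 or 0.0599 without control culture 2, 5 or 6.

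The spread between cultures was wider among the controls than with IFN-gamma in 17 of the 19 probe sets. The same count over all probe sets was not made, so this is not shown to be particular to these genes. Aif1 had the same order (SD 0.529 in the controls and 0.228 with IFN-gamma) and Ctsb the reverse (0.119 and 0.444). The level of IFN-gamma culture 1 is also a mean of 3 arrays. The median SD over the 19 was 0.204 between the IFN-gamma cultures and 0.41 between the controls. The 3 technical arrays of IFN-gamma culture 1 had a median SD of 0.159 after normalisation (range 0.0209 to 0.31), although array 1b was brighter than 1a and 1c in deposited signal for 18 of the 19. No one control culture was high throughout: culture 3 was the highest control on 6 probe sets, cultures 1, 2 and 5 on 4 each and culture 6 on 1. 

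The sizes of the changes were compared between genes by their brightest probe sets in 7 fixed comparisons. In each, the within-culture difference between the 2 probe sets was compared between IFN-gamma and control cultures by a two-sided exact permutation test over 56 splits, for which the smallest p is 0.0179, with adjustment over the 7. RT1-Da rose more than its partner RT1-Db1, with log2 fold changes of 4.77 and 3.19, a difference of 1.58 ± 0.364 SE (exact permutation adjusted p = 0.025). RT1-Da rose more than RT1-Ba by 1.52 ± 0.162 (exact permutation adjusted p = 0.025) and had a log2 fold change 2.93 ± 0.504 above that of RT1-DMb (exact permutation adjusted p = 0.025). The sizes of these differences depended on the probe sets. RT1-Da M15562_at and RT1-Ba X07551cds_s_at were nearly level, with log2 fold changes of 3.97 and 3.90. The 3.97 of M15562_at was also nearer than 4.77 to the RT1-Db1 probe sets, at 3.19 and 2.54. For RT1-DMb the probe set compared was the uncalled one, at 1.84, and the others had 2.62 and 1.97. Cd74 exceeded RT1-Da by 0.82 ± 0.262 (exact permutation adjusted p = 0.0417). Of the Cd74 probe sets X14254cds_at rose less than either RT1-Da probe set, with a log2 fold change of 3.36, and every other one rose more than both.

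Between the 2 chains of RT1.B the difference was not past the threshold: RT1-Ba minus RT1-Bb was 0.26 ± 0.428, with a 95% interval by inversion of the exact permutation test of -1.24 to 1.89 (exact permutation adjusted p = 0.625). Set against B2m, whose product is the class I light chain, Cd74 and RT1-Da had log2 fold changes larger by 3.96 ± 0.309 and 3.14 ± 0.24 (exact permutation adjusted p = 0.025 for each). The brightest B2m probe set was at 10.81, 10.90 and 11.17 with IFN-gamma, against 9.44, 9.11, 9.12, 9.49 and 9.51 in the controls. With 1 culture left out fewer splits remain and 0 comparisons were under the threshold. Without control culture 2 or 3, 4 comparisons stood at the threshold itself (exact permutation adjusted p = 0.05). The smallest possible p rises as splits fall, so a call lost in these fits does not show that a difference changed. Several differences depended on the offset of 16 added before the logarithm, which compresses changes that start near the floor. Cd74 minus RT1-Da passed at none of the other offsets, being 1.99, 1.52 and 0.23 with offsets of 1, 4 and 64 (exact permutation adjusted p = 0.05, 0.05 and 0.196). RT1-Da minus RT1-Db1 was 1.10 and 1.28 with offsets of 1 and 4 and did not pass (exact permutation adjusted p = 0.208 and 0.104). RT1-Da minus RT1-DMb was 3.30 with an offset of 1 (exact permutation adjusted p = 0.05). RT1-Ba minus RT1-Bb changed sign, to -0.43 and -0.19 with offsets of 1 and 4 (exact permutation adjusted p = 0.768 and 0.839).

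**Figure D4:**
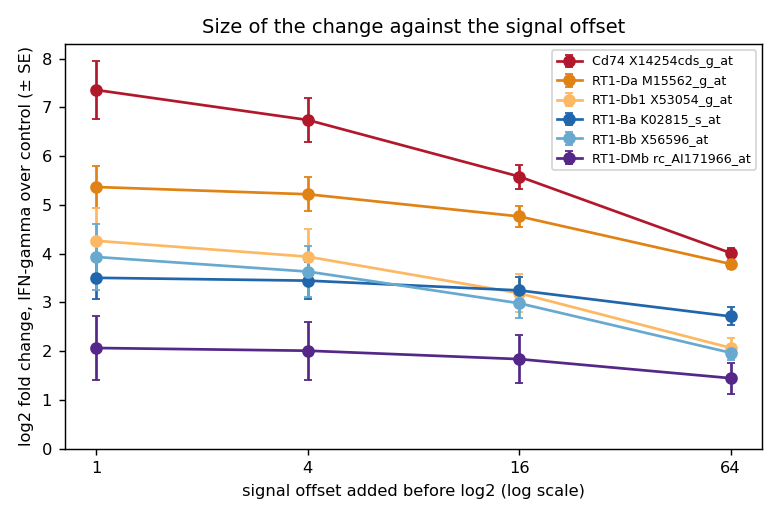
Log2 fold change, IFN-gamma over control, with its standard error for the brightest probe set of each of the 6 genes, against the offset added to the signal before the logarithm (1, 4, 16 and 64, log axis). Cd74 spans 7.36 at an offset of 1 to 4.01 at 64, while RT1-Ba spans 3.51 to 2.72.

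The genes with the most similar profiles were sought among the 4730 genes other than the 6 described here by the root mean square difference, over the 8 cultures, of each gene's deviations from its own control mean. Irf1, an interferon-induced transcription factor, Psmb9, a catalytic subunit of the immunoproteasome, and Gbp2, a guanylate-binding GTPase, were the 3 nearest to each of Cd74, RT1-Da, RT1-Db1 and RT1-Ba. For RT1-Ba the nearest was Irf1, at 0.342 log2 units. For Cd74 even the nearest, Psmb9, lay 1.41 log2 units away, since its own log2 fold change was 3.33. Gbp2 was nearest to RT1-Bb, at 0.389, followed by Cnn3, a calponin, at 0.46 and Psmb9 at 0.484. RT1-DMb, by rc_AI171966_at, stood with other genes, namely the proteasome subunit Psmb1 at 0.397, the class I heavy chain RT1-S3 at 0.415 and the proteasome subunit Psma7 at 0.438, and of these RT1-S3 alone passed the test (limma adjusted p = 0.0239). On that RT1-DMb probe set control culture 3 lay far below the other controls. RT1-S3 was also lowest there, at 5.60 against 6.52 to 7.09. The part of that culture in the likeness was not tested, and the other RT1-DMb probe sets were not searched.

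Other genes of the MHC class II region did not pass. All 4 that were measured, RT1-DMa, RT1-DOa, RT1-DOb and RT1-Ha, are counted here by their brightest probe set, and 0 of them passed (limma; 1 at an unadjusted p under 0.05, RT1-DMa), where 0.887% of 4736 genes were called higher. RT1-DMa, the alpha chain that pairs with RT1-DMb, was at 8.71, 8.47 and 8.82 with IFN-gamma and at 7.61, 7.29, 7.53, 8.01 and 7.98 in the controls. Its groups did not overlap and its log2 fold change was 0.98 ± 0.209 SE (limma adjusted p = 0.0592). It passed in 4 of 23 other settings, namely trimmed mean scaling, an offset of 64, an intensity trend in the variance and array quality weights (limma adjusted p = 0.0407, 0.0302, 0.0288 and 0.0373). With no scaling between arrays its log2 fold change was 1.62 (limma adjusted p = 0.495), and with array medians set equal 1.5 (limma adjusted p = 0.0582). A second RT1-DMa probe set had 1.20 ± 0.319 SE (limma adjusted p = 0.146).

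RT1-DOa and RT1-DOb, the chains of the DO molecule that restrains DM, had log2 fold changes of 0.18 and 0.13 (limma adjusted p = 0.949 and 0.96), and RT1-Ha had 0.16 (limma adjusted p = 0.895). RT1-DOa had signal in both groups, at 7.04 ± 0.183 with IFN-gamma (SD, n = 3) and 6.86 ± 0.695 in the controls (SD, n = 5). RT1-DOb lay near the floor in both, at 4.59 ± 0.535 with IFN-gamma (SD, n = 3) and 4.47 ± 0.445 in the controls (SD, n = 5). The promoter windows of RT1-DMa, RT1-DOa and RT1-DOb also held the Y box, and that of RT1-DOb the X box core as well, as shown here beside the members' sequences.
RT1-DMa chr20:4712389-4712441, minus strand, 106 to 54 bases before the start: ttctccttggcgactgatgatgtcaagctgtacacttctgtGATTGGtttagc
RT1-DOa chr20:4758520-4758572, minus strand, 149 to 97 bases before the start: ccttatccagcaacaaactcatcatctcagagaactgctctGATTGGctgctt
RT1-DOb chr20:4627596-4627643, minus strand, 120 to 73 bases before the start: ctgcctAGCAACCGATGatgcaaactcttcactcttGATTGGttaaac

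Of 11 genes of class II transcription 7 were measured, 2 rose and 0 fell by the brightest probe set, against 0.887% and 0.697% of all genes. Irf1 was at 8.97, 9.03 and 9.21 with IFN-gamma and at 5.53, 5.56, 5.89, 6.02 and 5.68 in the controls (log2 fold change 3.33 ± 0.174 SE). Irf8, a transcription factor of macrophages, rose by 1.51 ± 0.154 SE (limma adjusted p = 0.00112). The X box factor Rfx5 and the Y box factor subunit Nfyb had log2 fold changes of 0.27 and 0.31 (limma adjusted p = 0.823 and 0.657). The coactivator gene Ciita was not analysed here.

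Of the 10 endosomal processing genes measured 0 rose by the brightest probe set (2 were higher at an unadjusted p under 0.05) and 3 fell, against 0.887% and 0.697% of all genes. Those that fell were the cathepsins Ctsd, Ctsl and Ctsb, with log2 fold changes of -2.67, -2.85 and -1.24 (limma adjusted p = 5.17e-05, 7.41e-05 and 0.021). With no scaling between arrays these were -1.93, -2.26 and -0.39 and did not pass (limma adjusted p = 0.421, 0.392 and 0.958). Ctsb was the least secure: it was not called in 10 of 24 other settings, among them array medians set equal (-0.51, limma adjusted p = 0.792) and trimmed mean scaling (-0.84, limma adjusted p = 0.27), whereas Ctsd and Ctsl each lost the call in 1. Ctss, the cathepsin that trims the invariant chain in antigen-presenting cells, was at 11.15, 11.17 and 11.23 with IFN-gamma and at 10.44, 10.31, 10.63, 10.63 and 10.58 in the controls. The groups did not overlap and its log2 fold change of 0.66 ± 0.152 SE did not pass (limma adjusted p = 0.0835).

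Of 6 class I genes measured 4 rose and 0 fell, against 0.887% and 0.697% of all genes, with a median log2 fold change of 1.44 over the 6, against -0.02 over all genes. RT1-M3-1 and RT1-N3, also class I genes, did not pass, with log2 fold changes of 0.86 and 0.62 (limma adjusted p = 0.0512 and 0.338). The largest of the 6 was that of RT1-CE12, a class I heavy chain, at 1.84 ± 0.161 SE (limma adjusted p = 0.000374). With no scaling between arrays none of RT1-CE12, B2m, RT1-S3 and RT1-CE16 passed, with log2 fold changes of 2.61, 2.38, 2.30 and 2.04 (limma adjusted p = 0.155, 0.319, 0.19 and 0.431). Of 4 genes of T cell contact 1 rose and 0 fell, against 0.887% and 0.697% of all genes: Cd40, a costimulatory receptor, was at 6.13, 5.54 and 5.61 with IFN-gamma and at 4.19, 4.24, 4.44, 4.14 and 4.34 in the controls (log2 fold change 1.49 ± 0.183 SE, limma adjusted p = 0.00301). Icam1, an adhesion molecule, missed the threshold on its brightest probe set (1.35 ± 0.309 SE, limma adjusted p = 0.0819) and rose by another (1.13 ± 0.226 SE, limma adjusted p = 0.0459). Cd80 and Cd86, which deliver the costimulatory signal to T cells, had log2 fold changes of 0.14 and -0.08 (limma adjusted p = 0.932 and 0.976), and that of Cd86 was 0.20 with no scaling between arrays and 0.07 with array medians set equal.

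**Figure D5:**
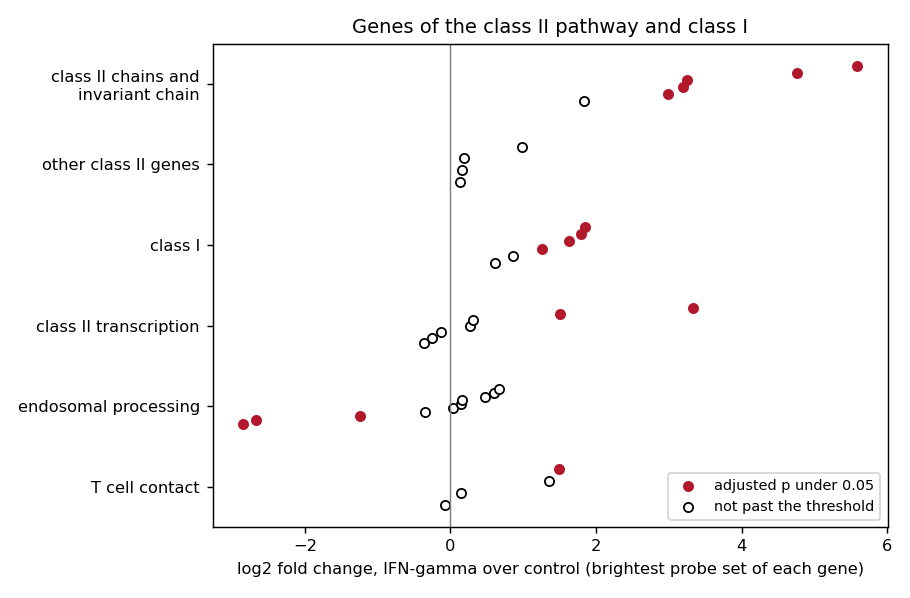
Log2 fold change, IFN-gamma over control, of each gene by its brightest probe set, for the 6 class II and invariant chain genes and 5 lists of related genes. Filled points passed an adjusted p of 0.05: 5 of the 6 in the top row, 0 of 4 other class II genes and 4 of 6 class I genes, with 3 endosomal processing genes to the left of 0.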

How the data were processed

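The values deposited by the authors are linear signal intensities of 8799 probe sets on each of 10 Affymetrix rat arrays. MAS5 and GCRMA appear in the submitters' processing notes without a role, and it is not known here which of them made these intensities. The number of arrays limits precision, and detection calls were not used here. After 59 array controls were set aside, log2(signal + 16) was quantile normalised over the 10 arrays, technical arrays 1a to 1c were averaged, and 8 cultures (3 IFN-gamma, 5 control) were compared with limma 3.58.1 in R 4.3.3 (two-sided, group as the only term, Benjamini-Hochberg over 8740 probe sets, threshold 0.05). The step was tested on simulated data. Symbols came from the platform annotation and 0 member symbols needed an update through RefSeq. Sequence letters came from RefSeq (GRCr8). RT1 genes are similar in sequence, so a probe set may also bind a neighbour's transcript. Named genes were all member probe sets, the other class II genes, up to 4 genes with the smallest adjusted p in each other list, and the 3 nearest profiles per member. A gene with several probe sets was counted by the one with the highest mean level. The members, lists and normalisation were chosen with earlier results of these data known. Culture numbers 1, 2 and 3 occur in both groups, but the labels tie no number to a shared brain or day, so the fit has no block. The scaling, offset, filters, technical arrays, model and cultures used were varied.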

Additional observations from a re-analysis of the deposited data

Results flagged for a closer look

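A control culture far from the other 4 was looked for in 24 probe sets of class II genes and the invariant chain, and 4 were found. The rule flags about 1 in 20 by chance if probe sets are independent. Several of these share an accession or lie near the floor, so the 4 cannot be read as an excess over chance. On RT1-DMb rc_AI171966_at control culture 3 was at 5.18, and the next lowest control was at 7.12. On RT1-Db1 X53054_at control culture 3 was the high one, at 4.92, and the next was at 4.32. On RT1-Bb M36151cds_i_at control culture 1 was at 4.20, and the next was at 4.06. On RT1-DOb AB008110cds_at control culture 2 was at 5.24, and the next was at 4.36. Control culture 3, in 2 of the 4, was also the array with the lowest median deposited signal, 7.4; the part of brightness in these values was not tested.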

How the results depend on the processing

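All 4 Cd74 probe sets and both RT1-Da probe sets kept their direction and call in all 24 other settings run, and both called RT1-Ba probe sets in all 23. The called member count was 14, and ran from 10 (replicate block) to 16 (intensity trend in eBayes), and from 12 to 15 when a culture was left out. Both RT1-Db1 calls were lost under the replicate block (log2 fold changes 3.11 and 2.49, limma adjusted p = 0.102 and 0.0596), as were those of RT1-DMb U31599_at (2.50) and U31599_g_at (1.95). Control cultures 5 and 6 have no same-numbered IFN-gamma culture, so under the block they do not enter the comparison. The RT1-Db1 changes were close to those without the block, 3.19 and 2.54. The deviations of same-numbered cultures had correlations of -0.027, 0.004 and -0.015, inside the range of differently numbered pairs (-0.072 to 0.096). With so few pairs, values this small cannot decide whether same-numbered cultures were paired. Over all probe sets, 81 were higher and 53 lower. Fewer were called with no scaling (38 and 1), an offset of 1 (42 and 25), an offset of 4 (53 and 32) and the replicate block (17 and 5). Without probe sets of reduced specificity 33 were lower, and with array medians set equal 27. With no scaling and without control culture 3, a setting chosen after seeing the data, 37 were higher and 11 lower. Leaving out 1 culture gave 47 to 105 higher and 21 to 48 lower. Of the 7 comparisons between genes 6 passed, and 3 did with an offset of 1. With 1 culture left out, where fewer splits remain, 0 passed. Without control culture 2 or 3, 4 stood at the threshold itself (exact permutation adjusted p = 0.05). Directions that turned, each past no threshold, were as follows. M15358cds_at was -0.048 without IFN-gamma culture 2 (range with 1 culture left out -0.048 to 0.37). U65217_i_at was 0.17 under the replicate block and at most 0.012 above 0 with control culture 5 or 6 or the third IFN-gamma culture left out (range -0.21 to 0.012). RT1-Ba minus RT1-Bb was -0.43 and -0.19 with offsets of 1 and 4. RT1-DOa was -0.056 under the replicate block, RT1-DOb -0.18 without IFN-gamma culture 2 (range -0.18 to 0.33), and Cd80 -0.043 without IFN-gamma culture 3 (range -0.043 to 0.29). Cd86 was 0.20 with no scaling, 0.073 with array medians, 0.039 with quality weights, 0.12 without control culture 3 or without IFN-gamma culture 3 (range -0.26 to 0.12), and 0.18 without control culture 3 and no scaling. The cause was not tested.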
